A study of Danio rerio with 6 samples.

Results

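The genes described here encode the vacuolar-type proton ATPase (V-ATPase), the pump that acidifies lysosomes and endosomes, and its accessory proteins. Members were all Ensembl IDs whose symbol, ignoring case, began with ATP6V0, ATP6V1 or ATP6AP, or was TCIRG1 with or without a paralogue letter. The rule gave 29 of the 35117 IDs in the files: 11 of the membrane sector (V0), 13 of the peripheral sector (V1) and 5 of accessory proteins. Each ID was kept as its own gene. Of the 29, 28 had enough reads to be tested; the exception was ATP6V1C2 (ENSDARG00000070440), with 8 reads in IEC library 2, 29 in LRE library 3 and 0 in the other libraries, where a count of 0 allows up to 3 reads.

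Expression was measured by RNA sequencing of sorted gut cells. The zebrafish larvae were of strain EK, listed as wild type, and carried a cldn15la-GFP reporter of intestinal epithelium. All larvae had been fed 1 to 2 nl of fluorescent dextran at 2.5 mg/ml by gavage at 5 days after fertilization and were dissociated 24 hours later, at 6 days. The intestinal epithelial cell group (IEC, n = 3 libraries) held cells positive for GFP. The lysosome rich enterocyte group (LRE, n = 3 libraries) held cells positive for GFP and for the dextran, a sugar polymer that these enterocytes take up from the gut lumen into large lysosomes. It is not stated whether the IEC gate left out cells with dextran, how many larvae were pooled, or whether the numbered libraries came from separate pools. The p-values therefore cover only library-to-library spread, which may be technical.

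The V-ATPase is a rotary motor in 2 sectors. In the cytosol, the A and B subunits of V1 bind and split ATP and turn a central shaft made of D and F, while E, G and C form the outer stalks and H is a regulatory subunit. In the membrane, the shaft turns a ring of c-type proteolipids (ATP6V0C and ATP6V0B) through the d subunit, past the large a subunit, which passes protons into the lumen. Vertebrates have several a subunits (ATP6V0A1, ATP6V0A2 and TCIRG1 among them), which in mammals direct the pump to different membranes, and many fish subunits exist as a pair of paralogous genes. Lysosomal proteases and glycosidases need the acid that the pump provides, and enterocytes that digest engulfed protein inside lysosomes are known for abundant lysosomal enzymes.

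Total counts lay between 39590129 and 53250871 per library, of which V-ATPase genes took 0.144 to 0.246% in IEC and 0.239 to 0.373% in LRE. The endocytic markers CUBN, amn, dab2 (ENSDARG00000031761) and lrp2b were higher in LRE, with log2 fold changes from 5.197 to 6.96; a second ID with the symbol DAB2, on the same marker list, did not pass. The epithelial marker cldn15la had a mean of 3845 ± 1261 CPM in the 3 IEC libraries (SD; CPM are counts scaled to a common library size with TMM factors) and of 2825 ± 213 CPM in the 3 LRE libraries. All LRE libraries lay below all IEC libraries, as for 13.8% of all genes, but cldn15la did not pass (edgeR log2 fold change -0.44, adjusted p = 0.64). The other listed epithelial markers, epcam (0.39), cdh1 (-0.049) and cdh17 (-0.097), overlapped between groups and did not pass either. LRE library 1 stood apart: it had reads in 19396 genes against 22974 to 25610 in the others, and mitochondrial genes took 21.7% of its counts against 4.18 to 11.4%. Calls of members and of paralogue pairs are given with and without it. Fold changes without it appear only within ranges, and the remaining values include it.

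Summed over all 29 IDs, V-ATPase transcripts had 1785, 1865 and 1289 CPM in IEC libraries 1 to 3 and 3462, 2892 and 3648 CPM in LRE libraries 1 to 3. Every LRE sum lay above every IEC sum, and the log2 ratio of the group means was 1.02. The V0 sum averaged 569 ± 115 CPM for IEC and 1273 ± 171 CPM for LRE (SD, n = 3 per group). The V1 sum was 854 ± 168 and 1696 ± 180 CPM, and the accessory sum 223 ± 30.7 and 365 ± 48.8 CPM. With TMM scaling the groups did not overlap in any of the 3 classes. As plain shares of the total counts, V0 took 0.0509 to 0.0842% in IEC and 0.0936 to 0.142% in LRE, still without overlap, whereas V1 (0.0734 to 0.130 and 0.121 to 0.189%) and accessory genes (0.0194 to 0.0316 and 0.0249 to 0.0426%) overlapped, as did all 29 IDs together. The log2 ratios of the means were 1.16 for V0, 0.99 for V1 and 0.71 for accessory proteins; whether the classes differed from each other was not tested. In bulk libraries of this kind, a larger share of cells that express a gene and more RNA per cell cannot be told apart.

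**Figure D1:**
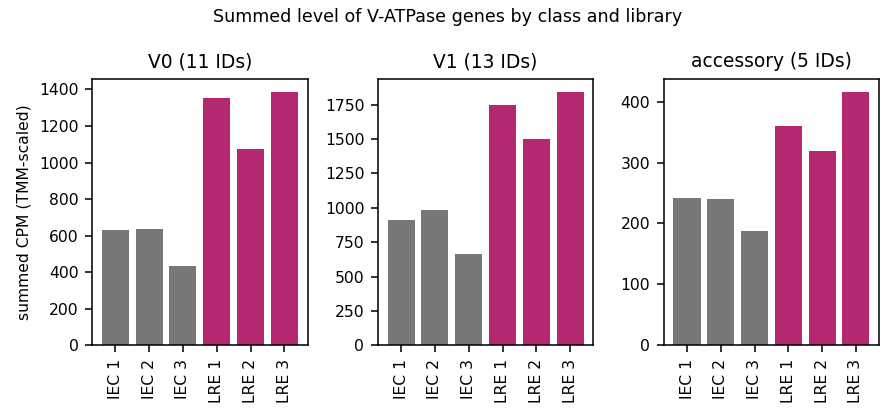
Summed CPM (vertical axis, TMM-scaled counts) of the V0, V1 and accessory IDs in each library, 1 bar per library, IEC in grey and LRE in magenta. The V0 bars run from 436 to 639 CPM in IEC and from 1076 to 1388 CPM in LRE, and in each panel all LRE bars are taller than all IEC bars.

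Gene by gene, 4 of the 28 tested members were higher in LRE and none lower (quasi-likelihood test of edgeR at an adjusted p under 0.05, Benjamini-Hochberg over 20979 genes). Of all genes tested, 2.3% were called higher and 0.91% lower. The 4 were the a-subunit gene ATP6V0A1 (ENSDARG00000020847), the proteolipid gene ATP6V0B, the stalk gene ATP6V1C1 (ENSDARG00000035880) and the shaft gene ATP6V1D. At an unadjusted p under 0.05, 17 members were higher, where 9.79% of all genes were, and 3 lower, where 7.19% were. The median log2 fold change was 1.02 over the 28 members, against -0.061 over all genes tested. All 3 LRE libraries lay above all 3 IEC libraries for 16 members, where 13% of all genes did so, and below them for 3 members, where 13.8% did so. The other 9 tested members overlapped. These separations depended on the scaling. As shares of total counts, a comparison added after the data had been seen, 5 members lay wholly above (5.69% of all genes), 3 wholly below (21.1% of all genes) and 20 overlapped. The 5 were ATP6V0A1 (ENSDARG00000020847), ATP6V0C (ENSDARG00000057853), ATP6V1C1 (ENSDARG00000035880), ATP6V1D and atp6v1e1b. The overlaps stated for single genes below refer to TMM-scaled CPM.

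The count of called members depended on the method. DESeq2 called 13 members higher, where it called 6.6% of all genes, and 2 lower, where it called 4.34%. Limma voom called 9 higher and 0 lower, against 2.89 and 1.38% of all genes. With the replicate number as a block, edgeR called 4 higher and 0 lower, against 3.76 and 1.75% of all genes.

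None of the 4 calls held in every fit. With scaling by library totals alone no member passed in either direction (adjusted p of the 4 from 0.204 to 0.344), where 0.653% of all genes were called higher and 0.868% lower. The median of the members was then 0.63. That scaling moved the median of all genes by -0.397, so the members stood 1.08 above it under TMM and 1.085 under totals. A change of scaling moves all genes by nearly the same amount, so this difference stays almost fixed and cannot test whether the result holds. With 1 library left out, 0 or 1 member was called higher and 0 lower, where 0.675 to 1.9% of all genes were called higher and 0.129 to 1.19% lower: none without IEC 1, IEC 3 or LRE 3, ATP6V1C1 (ENSDARG00000035880) without LRE 1 (adjusted p = 0.0318) or LRE 2 (0.0419), and TCIRG1 (ENSDARG00000105142) without IEC 2 (0.0484). The median log2 fold change of the members lay between 0.86 and 1.12 in those 6 fits.

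**Figure D2:**
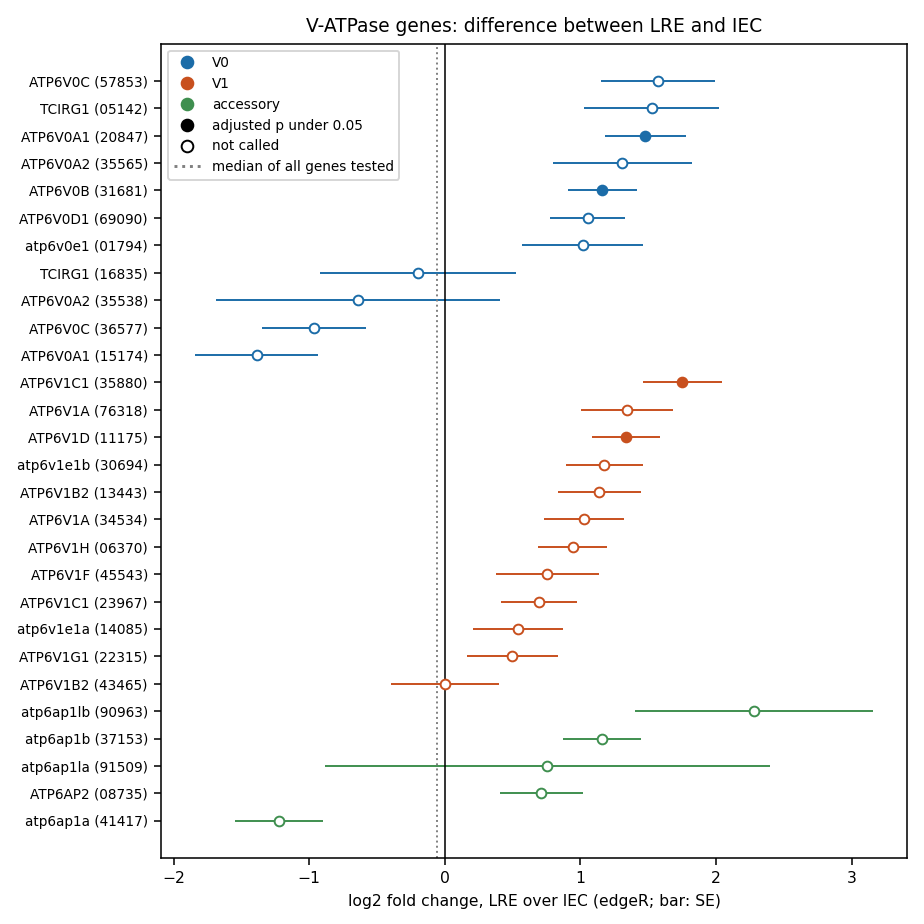
Log2 fold change of LRE over IEC (horizontal axis, edgeR, bars are SE) for the 28 tested V-ATPase IDs, grouped by class and labelled with the symbol and the last digits of the Ensembl ID; filled points passed at an adjusted p under 0.05. Most points lie near 1, and the 5 below 0 are the second IDs of ATP6V0A1, ATP6V0A2, ATP6V0C and TCIRG1, and atp6ap1a.

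In the membrane sector, 2 of 11 members were higher, where 2.3% of all genes tested were called higher, and 9 did not pass. ATP6V0A1 (ENSDARG00000020847), an a subunit that in mammals is best known from neurons and synaptic vesicles, had 59.17, 100.3 and 86.1 CPM in IEC libraries 1 to 3 and 248, 193 and 243 CPM in LRE libraries 1 to 3. All LRE libraries lay far above all IEC libraries in this gene. It rose by 1.48 ± 0.30 on the log2 scale (SE, adjusted p = 0.0373), and its call ended with each library left out in turn (adjusted p from 0.0637 to 0.148). ATP6V0B (ENSDARG00000031681), a proteolipid of the rotating ring, had 71.3, 79.6 and 59.3 CPM in IEC and 150, 146 and 173 CPM in LRE, without overlap on this scale but not as shares of total counts. It rose by 1.16 ± 0.25 (adjusted p = 0.0492), a call that ended with RLE factors (0.0549), upper-quartile factors (0.0564) or no filter (0.056). The call of ATP6V0B also ended with each library left out in turn (adjusted p from 0.0826 to 0.227).

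The other ring gene, ATP6V0C, is the symbol of 2 IDs whose point estimates had opposite signs. ENSDARG00000057853, with the highest CPM of the V0 members, had 207, 185 and 79.1 CPM in IEC and 599, 356 and 448 in LRE. ENSDARG00000036577 had 123, 55.9 and 80.0 CPM in IEC and 26.7, 49.95 and 55.8 in LRE. The groups did not overlap for either ID, the first being above and the second below in LRE. For the second ID the gap was very narrow, with 55.86 CPM in IEC library 2 and 55.77 in LRE library 3. Neither passed: the log2 fold changes were 1.57 ± 0.42 (adjusted p = 0.0905) and -0.96 ± 0.39 (adjusted p = 0.246). The second ID of ATP6V0A1, ENSDARG00000015174, also lay below in LRE without overlap. It had 15.7, 9.11 and 10.5 CPM in IEC and 3.01, 4.29 and 6.14 in LRE (-1.39 ± 0.45, adjusted p = 0.155).

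TCIRG1, the a3 subunit that in mammals serves lysosomes and the acid-secreting border of osteoclasts, was carried almost wholly by ENSDARG00000105142. That ID had 26.9, 83.2 and 26.3 CPM in IEC and 89.9, 127 and 176 in LRE. IEC library 2 stood well above the other IEC libraries and came close to LRE library 1. The log2 fold change was 1.52 ± 0.50 (adjusted p = 0.158), and 2.25 without IEC 2. The other TCIRG1 ID, ENSDARG00000016835, stayed between 0.991 and 2.48 CPM in all 6 libraries.

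For ATP6V0A2, an a subunit that in mammals works mainly in the Golgi and endosomes, ENSDARG00000035565 had 5.24 to 15.5 CPM in IEC and 14.1 to 41.4 in LRE (1.31 ± 0.51, adjusted p = 0.234). Its second ID, ENSDARG00000035538, lay between 0.157 and 2.88 CPM with overlapping groups. ATP6V0D1 (ENSDARG00000069090), the d subunit that joins ring and shaft, had 90.6, 94.8 and 66.1 CPM in IEC and 179, 143 and 199.7 in LRE. Its groups did not overlap, yet it did not pass (1.05 ± 0.28, adjusted p = 0.0879). The small subunit gene atp6v0e1 overlapped, at 11.0 to 30.9 CPM in IEC and 25.8 to 42.0 in LRE (1.01 ± 0.45, adjusted p = 0.295).

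In the peripheral sector, 2 of 12 tested members were higher, none lower, and 10 did not pass. Of all genes tested, 2.3% were called higher and 0.91% lower. All 12 point estimates were above 0, the lowest being 0.00016, where 47% of all genes tested had an estimate above 0. ATP6V1C1 (ENSDARG00000035880), a C subunit that clamps V1 to V0 and leaves when the sectors come apart, had 23.3, 32.6 and 25.6 CPM in IEC and 78.8, 76.2 and 119.8 in LRE. All LRE libraries lay far above all IEC libraries. It rose by 1.75 ± 0.29 (adjusted p = 0.0188), the smallest p of the members. ATP6V1D (ENSDARG00000011175), the shaft subunit, had 42.1, 50.5 and 35.9 CPM in IEC and 114.5, 100.9 and 109 in LRE, with no overlap. It rose by 1.34 ± 0.25 (adjusted p = 0.0285), and its call ended with each library left out in turn (adjusted p from 0.0628 to 0.158).

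**Figure D3:**
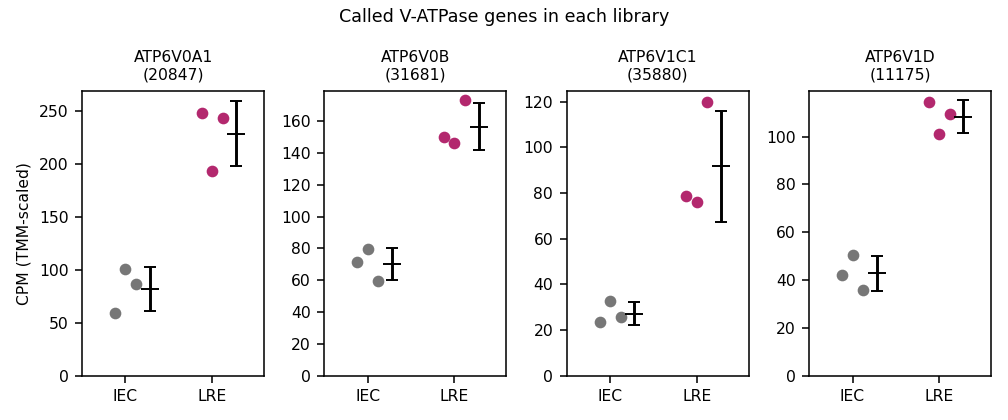
CPM (vertical axes from 0, TMM-scaled) of the 4 V-ATPase genes called higher in LRE, 1 point per library and the mean ± SD beside each group of 3. In every panel the 3 LRE points lie above the 3 IEC points; ATP6V1D runs from 35.9 to 50.5 CPM in IEC and from 100.9 to 114.5 in LRE.

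The catalytic head showed shifts of similar size that did not pass. ATP6V1B2 (ENSDARG00000013443), a nucleotide-binding B subunit and the V1 member with the highest CPM, had 131, 208 and 126 CPM in IEC and 364, 305 and 355 in LRE (1.14 ± 0.31, adjusted p = 0.0916). For the catalytic A subunit, ATP6V1A, the ID ENSDARG00000034534 had 84.7, 138 and 85.2 CPM in IEC and 225, 198 and 205 in LRE (1.03 ± 0.29, adjusted p = 0.112). The other, ENSDARG00000076318, had 28.9, 54.7 and 28.3 CPM in IEC and 82.8, 84.9 and 116 in LRE (1.34 ± 0.34, adjusted p = 0.0759). For these 3 IDs the groups did not overlap, and IEC library 2 was the highest IEC library in each. The second ID of ATP6V1B2, ENSDARG00000043465, had the same mean in both groups, 9.56 ± 3.13 CPM in IEC and 9.56 ± 1.74 in LRE (log2 fold change 0.00016 ± 0.40, adjusted p = 1).

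Among the stalk and regulatory subunits, atp6v1e1b had 124, 123 and 83.6 CPM in IEC and 259, 214 and 273 in LRE (1.18 ± 0.28, adjusted p = 0.0682). ATP6V1H (ENSDARG00000006370), the regulatory subunit, had 99.4, 104 and 82.2 CPM in IEC and 186, 160 and 203 in LRE (0.94 ± 0.26, adjusted p = 0.0956). The groups did not overlap for these 2, nor for the second ATP6V1C1 ID, ENSDARG00000023967, at 29.2 to 43.5 CPM in IEC and 47.6 to 71.4 in LRE (0.70 ± 0.28, adjusted p = 0.247). The 3 remaining V1 genes overlapped between groups: atp6v1e1a (0.54 ± 0.33, adjusted p = 0.469), the shaft gene ATP6V1F (0.76 ± 0.38, adjusted p = 0.366) and the stalk gene ATP6V1G1 (0.50 ± 0.34, adjusted p = 0.517). In IEC, library 1 was the highest for ATP6V1F, at 83.2 CPM against 37.0 and 35.1, and for ATP6V1G1, at 234 CPM against 165 and 109.

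Among the 5 accessory genes none passed, and at an unadjusted p under 0.05 3 were higher (9.79% of all genes) and 1 lower (7.19%). ATP6AP1, also called Ac45, helps to assemble the pump and exists as a pair of genes here. The gene atp6ap1b had 54.7, 90.4 and 58.6 CPM in IEC and 155, 136 and 164.5 in LRE (1.16 ± 0.29, adjusted p = 0.0741). The gene atp6ap1a lay the other way, with 36.9, 34.2 and 38.5 CPM in IEC and 11.2, 22.3 and 13.4 in LRE (-1.22 ± 0.33, adjusted p = 0.0902). The groups did not overlap for either. ATP6AP2, known as the prorenin receptor, had 149, 114 and 86.1 CPM in IEC and 189.5, 155 and 228 in LRE (0.71 ± 0.31, adjusted p = 0.283), with the lowest LRE library just above the highest IEC library. The ATP6AP1-like genes were rare: atp6ap1lb lay at 0.302 to 2.63 CPM in IEC and 3.93 to 8.51 in LRE (2.28 ± 0.88, adjusted p = 0.228), and atp6ap1la at no more than 2.17 CPM in any library, with 0 reads in LRE library 1.

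For 10 subunits or accessory proteins the files held 2 tested IDs each, which allowed the use of paralogues to be compared. In all 10, the ID with more counts in IEC had a log2 fold change above 0, from 0.70 to 2.28 with a median of 1.24. The other ID ranged from -1.39 to 1.75 with a median of -0.098, 5 of the 10 above 0 and 5 below. Of all genes tested, 47% lay above 0, and no such split is given for the other pairs of the genome. Several of the other IDs were rare, with at most 2.48 CPM for TCIRG1, 2.88 for ATP6V0A2 and 2.17 for atp6ap1la. In the ATP6AP1-like pair the ID with the higher mean in IEC held only 46.7% of the counts in IEC library 2. The share of a pair's counts that came from each ID does not depend on how libraries were scaled, although it depends on the lengths of both transcripts and on how reads shared by near-identical sequences were counted. Shares are therefore compared between libraries only, not read as molar ratios.

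The IEC-major ID of ATP6V0A1, ENSDARG00000020847, took 79.1, 91.7 and 89.1% of the pair's counts in IEC and 98.8, 97.8 and 97.5% in LRE. For ATP6V0C, ENSDARG00000057853 took 62.8, 76.8 and 49.7% in IEC and 95.7, 87.7 and 88.9% in LRE. For ATP6AP1, atp6ap1b took 59.8, 72.5 and 60.4% in IEC and 93.2, 85.9 and 92.5% in LRE. In each of these pairs the LRE libraries drew more of their counts from 1 gene than any IEC library did. In the ATP6V1C1 pair the shares lay the other way: ENSDARG00000023967 took 59.5, 57.1 and 53.3% in IEC and 47.5, 38.5 and 31.3% in LRE, so that the called ID, ENSDARG00000035880, held the smaller share in every IEC library and the larger share in every LRE library.

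The log2 ratio of the 2 IDs was then tested over all 2238 such pairs of the genome with limma, a test chosen after these values had been seen. It differed between LRE and IEC for 2 of the 10 V-ATPase pairs, where 1.97% of all pairs passed. The ratio of atp6ap1b to atp6ap1a rose by 2.48 ± 0.41 on the log2 scale (SE, adjusted p = 0.0291), and that of the ATP6V0A1 IDs by 2.91 ± 0.50 (adjusted p = 0.0322). The ATP6V0C ratio, at 2.62 ± 0.54, missed the threshold (adjusted p = 0.0516), and passed with the replicate number as a block (0.0392), with a pseudocount of 5 (0.0399) or over a wider set of 2383 pairs (0.0457), but not with a pseudocount of 0.5 (0.0694). The ATP6V1C1 ratio did not pass, with a log2 difference of -1.04 ± 0.34 (adjusted p = 0.209). Nor did those of TCIRG1 (1.95 ± 0.71, adjusted p = 0.252) and ATP6V1B2 (1.14 ± 0.42, adjusted p = 0.26).

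In the pairs of ATP6V1E1, ATP6V0A2, ATP6V1A and the ATP6AP1-like genes the adjusted p was 0.323 or more. The log2 ratios of the groups, taken with 1 CPM added to each ID, did not overlap in 26.7% of all pairs. The shares, taken from raw counts with nothing added, did not overlap in 7 of the 10 V-ATPase pairs. These figures rest on different measures, so they are not directly comparable. No V-ATPase pair passed without IEC 1, IEC 3 or LRE 3, the ATP6AP1 pair alone passed without LRE 2, and the ATP6AP1, ATP6V0A1 and ATP6V0C pairs passed without IEC 2 or LRE 1. In those fits 0.492 to 4.69% of all pairs passed. Over the 6 fits the log2 difference in ratio ran from 2.25 to 2.84 for ATP6AP1, from 2.47 to 3.23 for ATP6V0A1 and from 2.096 to 3.07 for ATP6V0C.

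**Figure D4:**
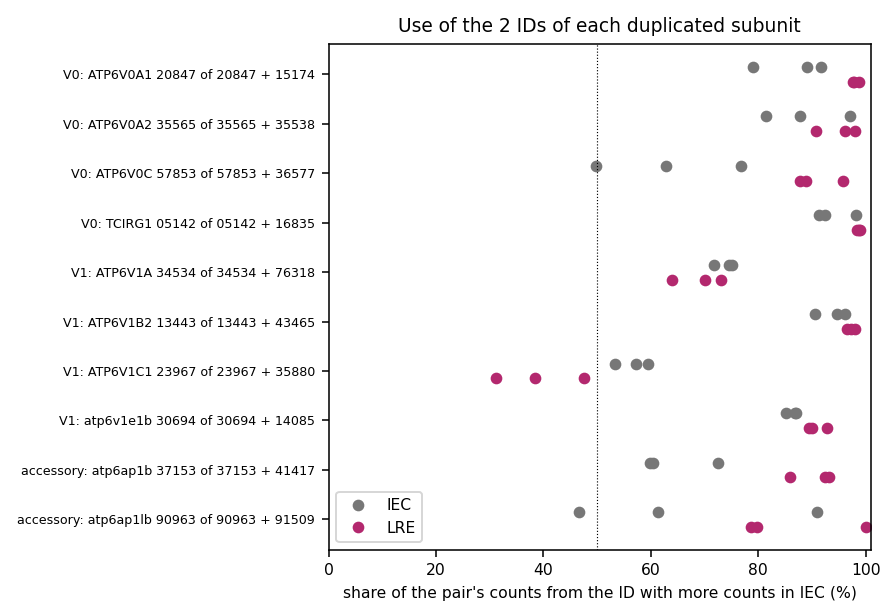
Share of a pair's counts (horizontal axis, percent) that came from the ID with more counts in IEC, for the 10 V-ATPase subunits with 2 tested IDs, 1 point per library (IEC grey, LRE magenta); the dotted line marks equal shares. In the ATP6V0A1 pair the IEC points lie at 79.1 to 91.7% and the LRE points at 97.5 to 98.8%, and ATP6V1C1 is the 1 pair whose LRE points lie wholly to the left of its IEC points.

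Genes that assemble the pump or work beside it were listed for comparison. Of all genes tested, 2.3% were called higher and 0.91% lower. In the list of assembly factors, the RAVE complex and related regulators, none of 17 tested genes passed, and the median log2 fold change was 0.17. The 2 with the smallest p were DMXL2, a large RAVE-type protein that reassembles V1 with V0 (12.02 ± 3.03 CPM in IEC, 34.1 ± 9.48 in LRE, log2 fold change 1.505 ± 0.34, adjusted p = 0.0534), and TMEM9B (1.52 ± 0.38, adjusted p = 0.0729). In the list of chloride transporters that balance the pump's charge and of other lysosomal channels, 3 of 17 were higher and none lower, with a median of 1.32. These were the two-pore channel gene tpcn3 (2.15 ± 0.33 CPM in IEC, 37.4 ± 6.01 in LRE, 4.12 ± 0.33, adjusted p = 0.00176), the mucolipin gene MCOLN3 (ENSDARG00000102050, 3.15 ± 0.36, adjusted p = 0.00398) and the proton-activated chloride channel gene PACC1 (1.68 ± 0.35, adjusted p = 0.0424). The listed gene mcoln3a (ENSDARG00000078363) had an estimate below 0 and did not pass (-2.54 ± 1.38, adjusted p = 0.409).

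The chloride-proton exchanger of lysosomes, CLCN7, and its partner OSTM1 did not pass, with log2 fold changes of 1.46 ± 0.48 (adjusted p = 0.158) and 1.45 ± 0.37 (adjusted p = 0.0771). These 2 genes were singled out for their known role. The Ragulator and Rag proteins bind the pump in sensing amino acids at the lysosome. In their list, with a median of 0.42, 1 of 15 was higher, against 2.3% of all genes tested. It was SLC38A9, an arginine sensor and transporter (5.03 ± 2.34 CPM in IEC, 42.3 ± 21.0 in LRE, 3.08 ± 0.52, adjusted p = 0.0191). No difference between these lists and the V-ATPase genes was tested.

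Proteins that share the lysosome with the pump gave 5 higher and no lower genes of 18 among membrane proteins (median 0.73). In the hydrolase list, which also holds activator proteins such as PSAP, 25 of 47 were higher and none lower (median 2.04). Of all genes tested, 2.3% were called higher and 0.91% lower. The membrane proteins called were CTNS, LAMP2, slc17a5, SLC36A1 and scarb2a. Symbols called in the hydrolase list included MAN2B1, ctsl.1, ACP2, MANBA, NEU1, PSAP, GALC (both IDs), FUCA1 (1 of 2 IDs), GLB1, LGMN, SCPEP1, CTSH, ARSA, TPP1, CTSZ, HEXA, CTSD, ctsf, SMPD1, CTSA, CTSC and acp5b. The largest of these, ctsl.1 at 5.96, exceeded the largest V-ATPase value, 2.28 for atp6ap1lb, which itself did not pass. TFEB, which activates lysosomal and V-ATPase genes in mammals, had 3.92, 6.35 and 2.55 CPM in IEC and 43.2, 72.05 and 113 in LRE (4.15 ± 0.50, adjusted p = 0.00491).

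**Figure D5:**
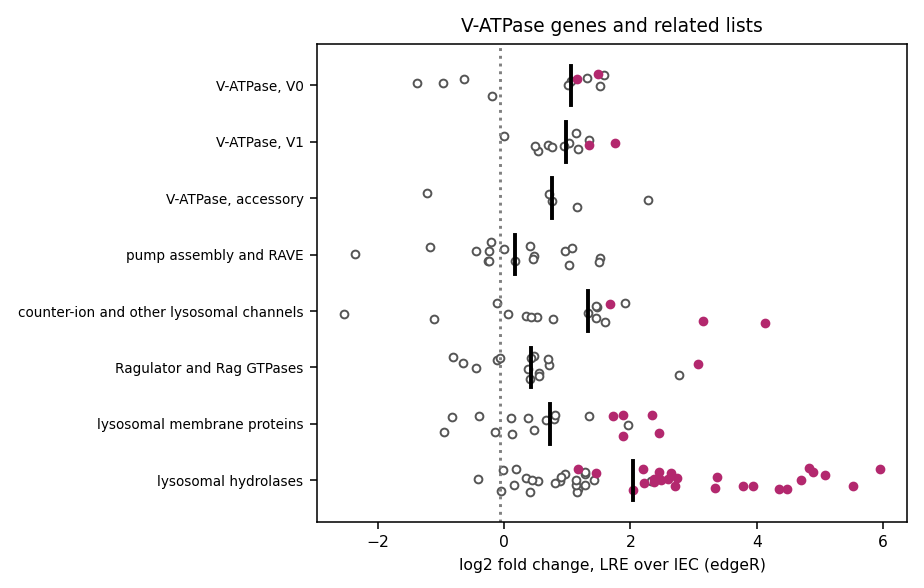
Log2 fold change of LRE over IEC (horizontal axis, edgeR) for each tested gene of the 3 V-ATPase classes and of 5 related lists; filled points passed at an adjusted p under 0.05, black bars are medians and the dotted line is the median of all genes tested. The V0, V1 and accessory medians are 1.05, 0.98 and 0.76, against 0.17 for assembly factors and 2.04 for hydrolases.

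Markers of other cells that could enter the gates were listed too, and 2 of them were called, ca2 and TACR2, both lower in LRE. Of all genes tested, 0.91% were called lower and 2.3% higher. Ionocytes are skin and gill cells, of which only some types are rich in V-ATPase, and the list was not split by type. They are marked by foxi3a and foxi3b, which had 3.54 to 9.94 and 0.596 to 3.54 CPM in IEC, and 0 to 8.23 and 4.92 to 13.9 in LRE. Among the 12 listed ionocyte genes 1 was called, ca2, which fell. The summed list ran from 1220 to 3660 CPM in IEC and from 481 to 665 in LRE, but ca2 alone gave 49.2 to 96.3% of it. The other 11 summed to 44.6 to 188 CPM in IEC and 129 to 288 in LRE, overlapping, and 6 of them had a log2 fold change above 0. Among these atp1a1a.2 had 3.67, 18.9 and 23.8 CPM in IEC and 48.0, 51.4 and 67.8 in LRE (1.85 ± 0.58, adjusted p = 0.145). TRPV6, slc12a10.2 and cahz had log2 fold changes of 1.92, 1.71 and 0.96 without passing. The rest of the 11 lay below 0, also without passing: foxi1 (-1.475), slc9a3.2 (-1.083), ca15a (-0.759), foxi3a (-0.178) and GCM2 (-0.0497). Each of those had 0 reads in LRE library 1. The sum of 18 macrophage and leukocyte IDs ran from 171 to 555 CPM in IEC and from 93.5 to 175 in LRE, with none of 15 tested called. Within IEC, most of these IDs were highest in library 2, such as LCP1 (8.31, 45.5 and 11.1 CPM) and csf1ra (0.251, 35.5 and 4.14). In contrast, lyz (123, 95.7 and 67.4 CPM) and some rare MFAP4 IDs were highest in library 1. Library 2 was also the highest IEC library for many V-ATPase members, among them all 4 called genes. The same held for TCIRG1 (ENSDARG00000105142), both ATP6V1A IDs and ATP6V1B2 (ENSDARG00000013443). Other members, such as both ATP6V0C IDs, ATP6V1F and ATP6V1G1, were highest in library 1. A link between the leukocyte and the V-ATPase values was not tested. The sum of 6 mesenchyme genes ran from 464 to 1220 CPM in IEC and from 2290 to 3370 in LRE, with none called. Best4 cell genes summed to 163 to 454 CPM in IEC and 144 to 202 in LRE with TACR2 lower. OTOP2 gave 23.1 to 72.7% of that sum. The other 5 Best4 genes summed to 118 to 297 CPM in IEC and 39.5 to 90.9 in LRE, and none of them had a log2 fold change above 0. The enteroendocrine list summed to 1080 to 2210 CPM in IEC and 138 to 530 in LRE with none of 5 called. No listed ionocyte, leukocyte, mesenchyme, Best4 or enteroendocrine gene was at 0 in all libraries, and the part of such cells in the V-ATPase values was not tested.

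Sums of goblet genes (1000 to 2290 CPM in IEC, 211 to 833 in LRE) did not overlap, whereas those of exocrine pancreas (1570 to 4670 and 419 to 5450) and red blood cells (73.2 to 178 and 112 to 258) overlapped. Sums of muscle genes ran from 373 to 506 CPM in IEC and from 536 to 706 in LRE, and those of neurons from 41.6 to 70.5 and from 92.9 to 138. The LRE sums of both lay wholly above the IEC sums. None of the 22 tested genes of these 5 lists was called, against 2.3% of all genes called higher and 0.91% lower. Median log2 fold changes were 1.23 for mesenchyme, 1.08 for neuron and 1.04 for muscle genes, of similar size to the 1.02 of the V-ATPase members. The median was 0.45 for red blood cell genes. It was below 0 for ionocyte (-0.017), exocrine pancreas (-0.46), goblet (-0.70), leukocyte (-0.98), Best4 (-1.66) and enteroendocrine genes (-2.45).

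The profile of ATP6V0A1 (ENSDARG00000020847), the called member with the highest CPM, was set against 8630 genes with a symbol and at least 10 CPM on average. The closest over the 6 libraries were CLPX (Pearson's r = 0.9998, log2 CPM), DHRS11 (0.995), IQSEC2 (0.994), CLIC4 (0.993) and ifnlr1 (0.992). With 6 libraries in 2 groups, any gene that separates the groups in the same order scores high, so these values are a description only. Among the members, atp6ap1b followed it most closely (r = 0.976, with 70 of the 8630 genes closer), then ATP6V1C1 (ENSDARG00000035880, 0.966) and ATP6V1B2 (ENSDARG00000013443, 0.962). The members most opposed were atp6ap1a (-0.927) and the second ATP6V0A1 ID (-0.922).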

How the data were processed

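The authors deposited 1 file of raw whole-number counts per Ensembl gene for each of the 6 libraries. Per the submitters' processing notes, reads were processed with HISAT2 and HTSeq on the GRCz10 build; not given in the sources used here are versions, annotation release and the strand and overlap settings, so paralogous, overlapping and antisense genes are uncertain. Per the labels' protocols, libraries came from an ultra low input kit. Groups came from the sample titles. Symbols came from a table covering 27000 IDs that often omits paralogue letters, so IDs with the same symbol are told apart by ID. No genome, sequence or transcript length was used here, so levels are not compared between genes per length.

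The fit was edgeR 4.0.16 in R 4.3.3 (quasi-likelihood F test, TMM factors 0.692 to 1.40, filterByExpr with a minimum count of 10 and total of 15) on all 6 libraries, with Benjamini-Hochberg adjustment over 20979 genes. The SE is the log2 fold change divided by the root of F. Paralogue ratios were tested with limma 3.58.1 on log2 CPM differences (prior count 2) over pairs of tested IDs with 1 symbol, or lower-case symbols that differ by a final a or b; the plan had no test of them, and a wider set of pairs had been tried first. With 3 against 3 libraries an exact permutation test cannot go below 0.10, so none is given. DESeq2 1.42.0, limma voom and other settings were alternatives. Scripts were tested on simulated data. Members, lists and tests were chosen with earlier results of these data known. Values are given for all called members, the smallest p and highest CPM per class and all duplicated subunits, and the called genes of each related list, or else the 2 with the smallest p, are named, lysosomal ones mostly without values; some called hydrolases are not reported here. The limit of up to 3 reads for a count of 0 covers counting error only. The SD and SE values include the spread between libraries.

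Both groups use replicate numbers 1 to 3, whose meaning is not stated. Deviations from group means had correlations of 0.217, 0.238 and 0.188 in the pairs of equal number (Pearson's r across genes, which are not independent replicates) and of -0.194 to 0.0136 in other pairs. All 3 exceeded the values of every other pair, so equal numbers may mark paired libraries, on these correlations only. Deviations within a group cancel out for each gene, so positive values in some pairs push those of the others down. The reported fits have no block, and the block was an alternative.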

Additional observations from a re-analysis of the deposited data

How the results depend on the processing

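The count of members called higher was 4 with TMM, 0 with scaling by totals alone (0.653% of all genes), 13 with DESeq2 (6.6%) and 9 with limma voom (2.89%). DESeq2 also called 2 members lower (4.34% of all genes), atp6ap1a and ATP6V0A1 (ENSDARG00000015174). It was 0 to 1 over the 6 fits that left out 1 library (0.675 to 1.9% of all genes) and 0 with IEC 1 and LRE 1 both left out (1.15%), a setting added once the data had been seen. With totals alone the medians were 0.63 for members, 0.77 for V0, 0.57 for V1 and 0.38 for accessory genes. The accessory median ran from 0.52 to 1.15 over the fits that left out 1 library. The replicate block changed no call of a single member (its 4 higher members stand against 3.76% of all genes); among pairs it added ATP6V0C (adjusted p = 0.0392), giving 3 (3.62% of all pairs). The count of pairs was 0 to 3 with 1 library left out (0.492 to 4.69% of all pairs), and 1 without both libraries numbered 1 (2.28%), against 2 (1.97%). ATP6V1B2 (ENSDARG00000043465), whose log2 fold change was 0.00016, changed sign with RLE (-0.0080), upper-quartile factors (-0.033), totals (-0.43), no filter (-0.0033), DESeq2 (-0.0081), both libraries numbered 1 left out (-0.018) and with 1 library left out (-0.161 to 0.26). TCIRG1 (ENSDARG00000016835) changed sign without both libraries numbered 1 (0.15) and ran from -0.48 to 0.094 with 1 library left out, and atp6ap1la (ENSDARG00000091509) from -0.070 to 2.46. The cause of these changes was not tested. Of the 28 tested members, 21 had a log2 fold change above 0 with all libraries and in all 6 fits that left out 1. No such share is given for all genes tested. Those fits share most of their libraries with the full fit, so a kept sign is not independent of it.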
